A study of Canis lupus familiaris with 6 samples.

Results

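Retinoid handling was described through 9 genes in canine adipose-derived stem cells, precursor cells from dog fat, that had been driven towards adipocytes with or without bisphenol A (BPA), a building block of polycarbonate that can act on oestrogen receptors. The genes were the retinoic acid binding proteins CRABP1 and CRABP2, the retinol transporter STRA6, the enzymes ALDH1A1, ALDH1A3 and DHRS3, and the retinoic acid receptors RARA, RARB and RARG. They were taken by name from the deposited table of 23299 genes, where 8 of the 9 had a row. CRABP1 is not analysed here. The set was chosen by the BPA and control values of CRABP2, which was among the genes of smallest p in that comparison, so every BPA and control value of the 9 genes is given below as a description, without a test.

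The BPA group held 3 libraries from cells kept for 14 days in adipogenic medium with 1 µM BPA, and the control group held 3 libraries from cells kept for 14 days in the same medium with the solvent DMSO. The medium, given to both groups after 2 days in culture, held the glucocorticoid dexamethasone at 1 µM, the PPARG agonist rosiglitazone at 200 nM and insulin at 10 µg/mL. Neither a genotype nor the number of dogs behind the cells is stated in the labels. They also do not say whether the replicates were separate cultures or animals, so the spread between libraries may be technical. Where 3 values are given for a group, they are replicates 1, 2 and 3 in that order.

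Retinol reaches cells on the plasma carrier RBP4 and can enter through STRA6. Retinol dehydrogenases such as RDH10 oxidise it to retinaldehyde, DHRS3 reduces retinaldehyde back to retinol, and the ALDH1A enzymes make retinoic acid in a step that is not reversed. Inside the cell CRABP1 and CRABP2 bind retinoic acid, and in mouse and human cells CRABP2 carries it to the RAR receptors in the nucleus, which bind DNA together with RXR receptors. CYP26 enzymes degrade it. In mouse preadipocytes, retinoic acid given early blocks the formation of adipocytes, and CRABP2, STRA6, DHRS3 and RARB are themselves known targets of retinoic acid in several cell types.

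Markers of adipocytes and of stromal cells were present in part. Of 9 adipocyte markers, 8 averaged at least 1 TPM (transcript abundance per length, scaled to a total of 1000000 in each library), and the exception was the adipogenic receptor PPARG. Their summed level, most of it LPL and LEP, was 653 to 905 TPM with BPA and 612 to 726 TPM in control. ADIPOQ, FABP4, PLIN1, CIDEC and PPARG, 5 of the 9, lay higher in all BPA libraries than in any control library, LEP lay lower in all BPA libraries, and LPL, PLIN4 and CEBPA overlapped. Of all tested genes 5.38% lay higher and 3.98% lower in this way. Of the stromal markers 8 of 9 had a row and 5 averaged at least 1 TPM. NT5E, CD34 and DLK1 did not. PDGFRA lay higher in all BPA libraries and the other 7 overlapped. The summed level, most of it LUM and DCN, was 3355 to 5163 TPM with BPA and 3653 to 4272 TPM in control. The 7 of 8 endothelial markers with a row summed to 2.09 to 2.20 TPM with BPA and 2.03 to 2.28 TPM in control. Most of that was ERG, at 1.28 to 1.62 TPM, and all 7 overlapped. The endothelial markers PECAM1, CDH5 and VWF and the leukocyte marker PTPRC were under 0.1 TPM in every library. The 5 of 8 leukocyte and macrophage markers with a row summed to 31.2 to 52.1 TPM with BPA and 28.5 to 39.6 TPM in control. Most of that was CD14. CSF1R lay lower in all BPA libraries and the other 4 overlapped. The 6 of 9 mesothelial and epithelial markers summed to 26.2 to 44.0 TPM with BPA and 26.8 to 33.7 TPM in control, nearly all of it UPK3B. The main axis of variation did not follow the treatment. On the first principal component, which held 79.8% of the variance, the BPA libraries scored -29.9, -0.10 and 61.1 and the control libraries -28.1, 11.3 and -14.4. BPA replicate 3 stood apart.

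CRABP2 was the most abundant of the 8 measured members and the 1 whose groups did not overlap. It had 15.6, 19.9 and 22.7 TPM with BPA, against 30.7, 34.1 and 33.8 TPM in control. All 3 BPA libraries lay below all 3 control libraries, with the lowest value in BPA replicate 1. The mean was 19.4 ± 3.56 TPM with BPA and 32.9 ± 1.88 TPM in control (SD, n = 3 each), a ratio of 0.589 and a difference of -0.75 on the log2(TPM + 1) scale (SE 0.15). Of all tested genes, 3.98% likewise had every BPA library below every control library. This value belongs to the contrast that chose CRABP2, and nothing is read from its place in that share. By rank, CRABP2 lay above 78.4%, 80.7% and 81.1% of the genes in the table with BPA and above 86.2%, 86.5% and 86.9% in control. In RNA from whole cultures, fewer cells that express a gene and less of its RNA per cell cannot be told apart.

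**Figure D1:**
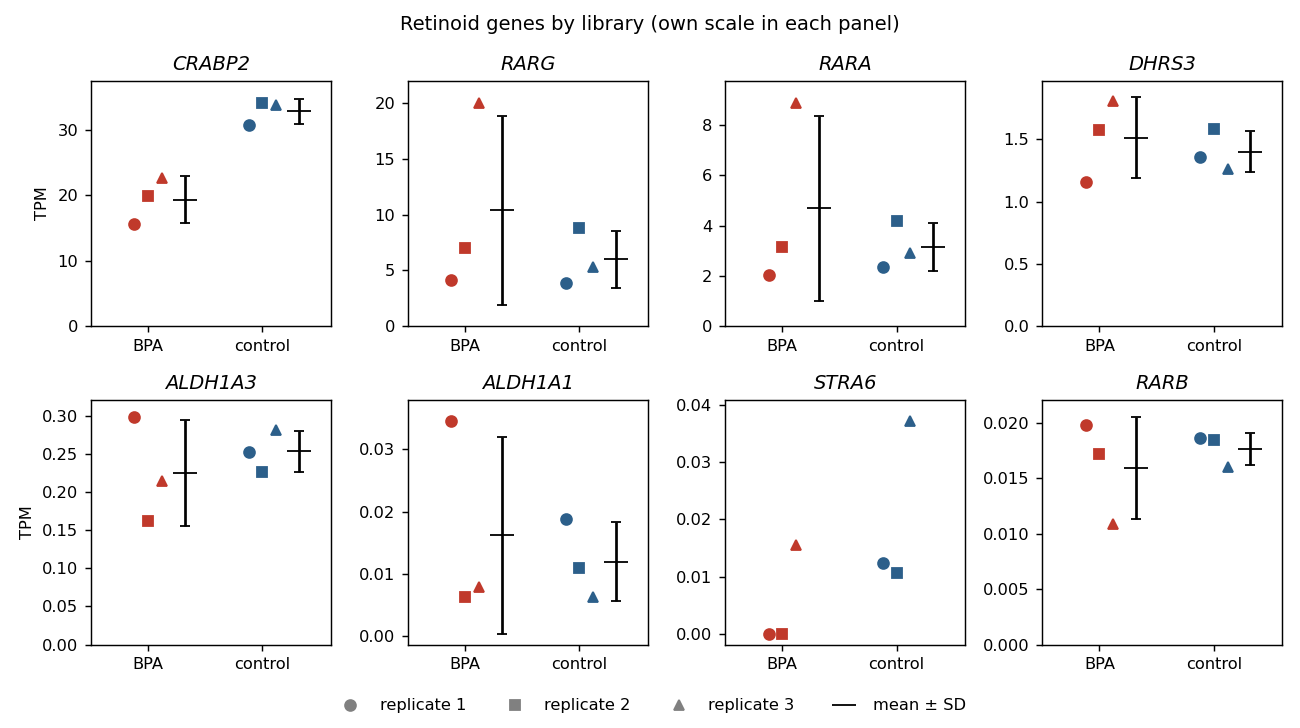
TPM of the 8 measured retinoid genes in each library, with BPA left of control, 1 marker shape per replicate number and the mean ± SD beside the points except for STRA6, which was listed at 0 in 2 libraries. Each panel has its own scale. The BPA points for CRABP2, 15.6 to 22.7 TPM, all lie below the control points, 30.7 to 34.1 TPM, while the groups overlap in the other 7 panels.

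The 5 adipocyte markers above control and CRABP2 below it differed in opposite directions, which follows from how they were picked. Of the other adipocyte markers, LEP lay below control, as CRABP2 did, and LPL, PLIN4 and CEBPA overlapped. ADIPOQ, the adipocyte hormone adiponectin, was at 33.0 ± 7.13 TPM with BPA and 10.7 ± 3.53 TPM in control (SD, n = 3 each). The part of adipocyte markers in the CRABP2 values was not tested. Smooth muscle and pericyte markers, of which 6 of 8 had a row, were mixed. Their summed level, most of it TAGLN, was 8562, 9814 and 10760 TPM with BPA and 9836, 11090 and 10620 TPM in control, so it too was lowest in BPA replicate 1, but the groups overlapped. The contractile protein CNN1 was the 1 marker of the 6 without overlap, at 176, 196 and 224 TPM with BPA, against 227, 248 and 254 TPM in control. ACTA2, TAGLN, MYH11, MCAM and CSPG4 overlapped, with mean levels below control for ACTA2 and TAGLN and above it for the other 3. These markers do not show that such cells were present, and their part in the CRABP2 values was not tested.

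The 5 genes whose profile was most like that of CRABP2 over the 6 libraries were CA9, DKK1, PNCK, CA12 and C1QTNF2. Likeness was the root mean square difference of log2(TPM + 1) after each gene was centred on its own mean. It was 0.09 for CA9 and 0.12 for DKK1, against a median of 0.46 over all tested genes. CA9 and CA12 are carbonic anhydrases, DKK1 is a secreted Wnt antagonist, PNCK is a calmodulin-dependent kinase and C1QTNF2 is a secreted relative of adiponectin. Their differences between groups follow from the choice, since each was picked for likeness to a gene that was lower with BPA. PNCK had 18.9, 29.1 and 28.5 TPM with BPA, against 35.0, 45.2 and 35.3 TPM in control. C1QTNF2 had 8.31 ± 0.629 TPM with BPA and 11.7 ± 0.422 TPM in control (SD, n = 3 each). All 5 genes were lowest in BPA replicate 1, as CRABP2 was, which the choice by likeness over these same libraries favours.

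**Figure D2:**
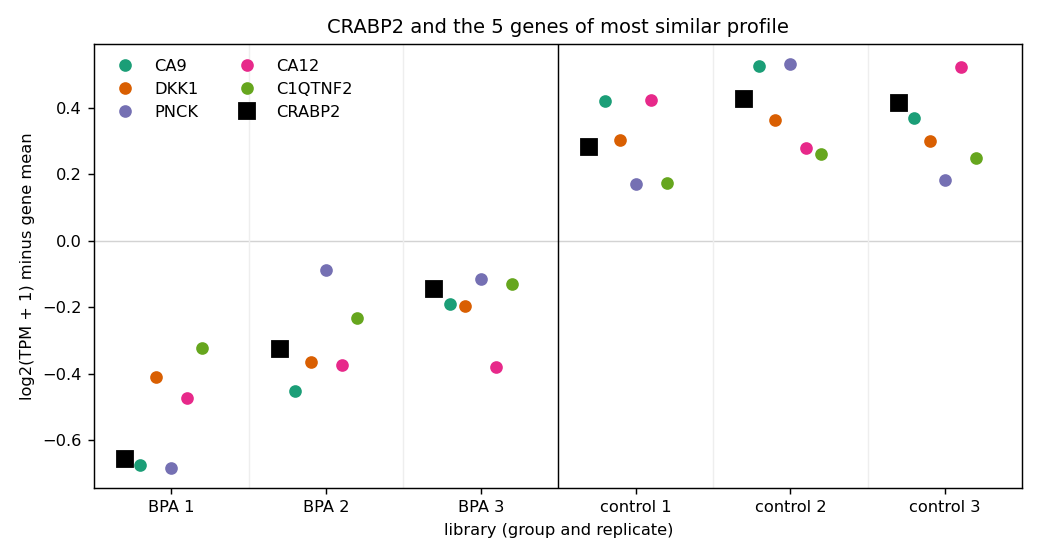
Level of CRABP2 (black squares) and of the 5 genes of most similar profile (coloured circles) in each library, as log2(TPM + 1) minus the gene's own mean over the 6 libraries. The dark line parts BPA from control. CRABP2 runs from -0.66 to -0.14 with BPA and from 0.28 to 0.43 in control, and PNCK in BPA replicate 1 lies at -0.68.

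RARG and RARA were the next most abundant members, and the difference between their group means was smaller than the SD of the BPA libraries. RARG had 4.15, 6.97 and 20.1 TPM with BPA, against 3.85, 8.85 and 5.32 TPM in control. BPA replicate 3 was the highest library and control replicate 2 the second, so the groups overlapped. The mean was 10.4 ± 8.49 TPM with BPA and 6.01 ± 2.57 TPM in control (SD, n = 3 each), a log2 difference of 0.51 (SE 0.56). Without BPA replicate 3 that difference was -0.07.

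RARA, the receptor that is expressed in most tissues, had 2.04, 3.14 and 8.90 TPM with BPA, against 2.33, 4.20 and 2.89 TPM in control. The same libraries were highest and the groups again overlapped. The mean was 4.69 ± 3.69 TPM with BPA and 3.14 ± 0.956 TPM in control (SD, n = 3 each), a log2 difference of 0.30 (SE 0.46). Without BPA replicate 3 it was -0.20. RARB was near the bottom of the table in every library, at 0.0198, 0.0172 and 0.0108 TPM with BPA and 0.0186, 0.0185 and 0.0160 TPM in control.

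The proportion of RARG to RARA differed less between libraries than the level of either. RARG made up 66.8%, 68.8% and 69.2% of the summed RAR level with BPA and 62.1%, 67.7% and 64.7% in control. RARG thus took the larger share in every library, and the groups overlapped. The ratio of RARG to RARA ran from 1.65 to 2.25 over the 6 libraries, while RARG itself differed 5.21-fold and RARA 4.37-fold between its lowest and highest library. RARB took from 0.0374% to 0.320% of the summed RAR level.

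The RXR partners of the RARs also overlapped between groups. RXRB, the more abundant, had 29.8, 35.2 and 47.4 TPM with BPA, against 30.4, 35.8 and 34.3 TPM in control (limma, log2 change 0.13, SE 0.18, adjusted p = 0.901). RXRA had 2.11, 4.13 and 15.3 TPM with BPA, against 1.74, 5.33 and 2.75 TPM in control (limma, log2 change 0.67, SE 0.66, adjusted p = 0.901). The share of RXRA in the summed RXR level was 24.4% in BPA replicate 3 and 5.40% to 12.9% in the other 5 libraries. RXRG was under 0.135 TPM in all 6 libraries and was not tested.

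The receptors lined up with the first principal component. RARA, RARG, RXRA and RXRB all had BPA replicate 3 highest, then control replicate 2, BPA replicate 2 and control replicate 3, with BPA replicate 1 and control replicate 1 lowest. That order was shared by 15.2% of all tested genes and by 9 of 25 tested receptor partners and coregulators. The component was built from these same genes, so this is a description. CYP26B1, a retinoic acid degrading enzyme, had the same order, at 2.62, 3.88 and 17.1 TPM with BPA, against 1.97, 6.43 and 2.91 TPM in control (limma, log2 change 0.63, SE 0.68, adjusted p = 0.901). Its highest library was 8.72-fold above its lowest. CRABP2 did not have this order over the 6 libraries, being lower in BPA replicate 3 than in any control library. Within each group, though, its libraries ranked by level as they did by score on the component.

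**Figure D3:**
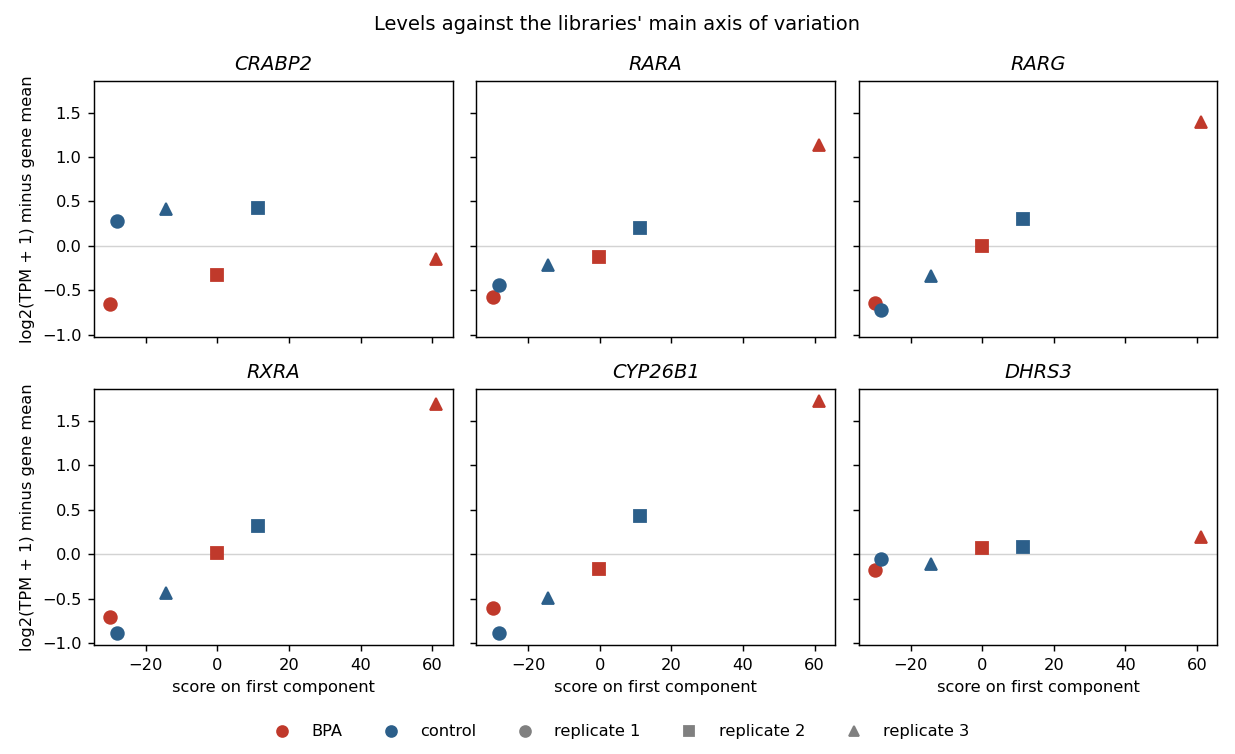
Log2(TPM + 1) minus the gene's mean for CRABP2, RARA, RARG, RXRA, CYP26B1 and DHRS3 (vertical) against the score of each library on the first principal component (horizontal), with BPA in red, control in blue and 1 marker shape per replicate number. RARA, RARG, RXRA and CYP26B1 climb with the score, up to 1.72 for CYP26B1 in BPA replicate 3, whereas the BPA points of CRABP2 lie below all its control points.

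Among the enzymes, DHRS3 was the only measured member past the expression filter. It had 1.16, 1.57 and 1.81 TPM with BPA, against 1.36, 1.59 and 1.26 TPM in control. The lowest and the highest library were both BPA libraries. The mean was 1.51 ± 0.327 TPM with BPA and 1.40 ± 0.167 TPM in control (SD, n = 3 each), and the log2 difference of 0.06 (SE 0.13) became -0.02 without BPA replicate 3 and -0.02 with median centring of the libraries. The ALDH1A enzymes were scarce. ALDH1A3 had 0.299, 0.162 and 0.215 TPM with BPA, against 0.253, 0.227 and 0.281 TPM in control. ALDH1A1 had 0.0345, 0.00622 and 0.00784 TPM with BPA, against 0.0187, 0.0108 and 0.00628 TPM in control. ALDH1A3 gave 89.6% to 97.8% of the sum of both in the 6 libraries, and ALDH1A2 is not analysed here. STRA6 was listed at 0 in BPA replicates 1 and 2 and had 0.0154 TPM in BPA replicate 3, against 0.0123, 0.0107 and 0.0371 TPM in control. At such levels the table, which keeps no read depth, cannot show a difference.

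Ordered by level, the members ran from CRABP2 through RARG, RARA, DHRS3 and ALDH1A3 to ALDH1A1, RARB and STRA6. CRABP2 exceeded RARG within every library, by 3.76, 2.85 and 1.13 times with BPA and 7.98, 3.86 and 6.36 times in control. Across libraries the ranges of CRABP2 and RARG overlapped through the RARG value of 20.1 TPM in BPA replicate 3, and so did those of RARG and RARA. RARA, DHRS3 and ALDH1A3 did not overlap with one another in any library. The last 3 members, all under 0.04 TPM, could not be ordered.

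The wider retinoid genes set the comparison of BPA with control beyond the members. Their lists were drawn up with earlier results of these data known, so they are not an independent background. They were 121 genes on 4 lists, of which 99 had a row and 73 reached the filter, a mean log2(TPM + 1) of at least 1. By limma with Benjamini-Hochberg adjustment over all 12277 tested genes, 0 of the 73 were higher and 0 lower, against 0% of all tested genes in either direction, and the smallest adjusted p was 0.901. With library weights estimated gene by gene in limma, which gave most weight to BPA replicate 2 and control replicate 3, 12 of the 73 passed, 10 higher and 2 lower, as did 881 of all tested genes. At an unadjusted p under 0.05 in the equally weighted fit there were 6 higher and 1 lower, beside 1.87% and 1.7% of all tested genes. Every BPA library lay above every control library for 9 of the 73 and below for 3. The shares of all tested genes were 5.38% and 3.98%.

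Of the 73, 60 had a log2 change above 0, with a median of 0.16, against 56.6% of all tested genes and a median of 0.03. Of the 73, 4 reached the filter only through their BPA mean, which puts them above control by construction, and 0 only through their control mean. Without BPA replicate 3 the count was 46 of 73 and the median 0.03, against 57.6% and 0.02 over all tested genes. With median centring it was 48 of 73, against 39.5% of all tested genes. BPA replicate 3 was the highest library for 49 of the 73 genes, and for 38.9% of all tested genes.

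**Figure D4:**
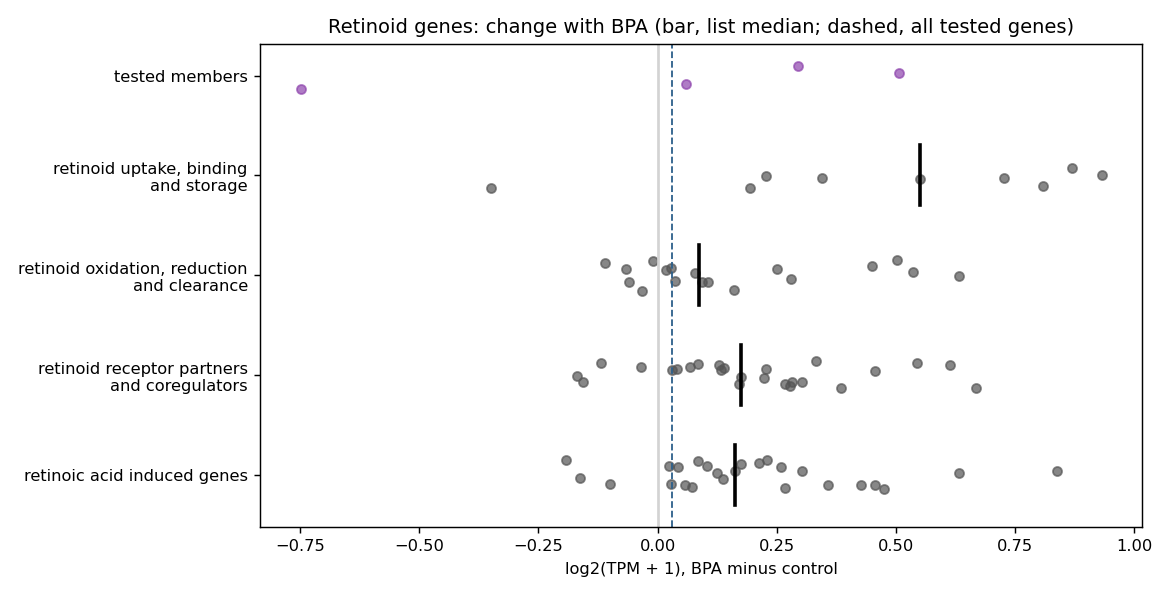
Log2(TPM + 1) with BPA minus control for the 4 tested members (top row) and the tested genes of each wider retinoid list, 1 point per gene, with bars at the list medians. The dashed line is the median of all tested genes, 0.03. CRABP2 is the point at -0.75, and RBP4 at -0.35 is the leftmost gene of the uptake list.

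Carriers and uptake genes lay apart from one another. FABP5, a fatty acid carrier that in mouse cells delivers retinoic acid to the receptor PPARD, had 8.25, 8.82 and 4.45 TPM with BPA, against 3.93, 3.48 and 3.95 TPM in control. Every BPA library lay above every control library, as in 5.38% of all tested genes (limma, log2 change 0.73, SE 0.24, adjusted p = 0.901). Without BPA replicate 3 the log2 change was 1.00 with an adjusted p of 0.265 by limma, and over the alternatives the adjusted p ranged up to 1, without control replicate 1. It was 0.00971 with gene-by-gene library weights and 0.00108 with weights whose estimation did not converge. The ratio of CRABP2 to FABP5 was 1.89, 2.25 and 5.09 with BPA, against 7.83, 9.83 and 8.57 in control. The groups did not overlap, and since CRABP2 was chosen for its difference this ratio is a description. FABP5 is also an adipocyte gene. The adipocyte marker FABP4, picked with its values in view, had a like profile, at 124, 117 and 48.7 TPM with BPA, against 43.9, 43.2 and 30.5 TPM in control, whereas among the other adipocyte markers LEP lay below control and LPL, PLIN4 and CEBPA overlapped. The part of adipocyte markers in the FABP5 values was not tested.

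**Figure D5:**
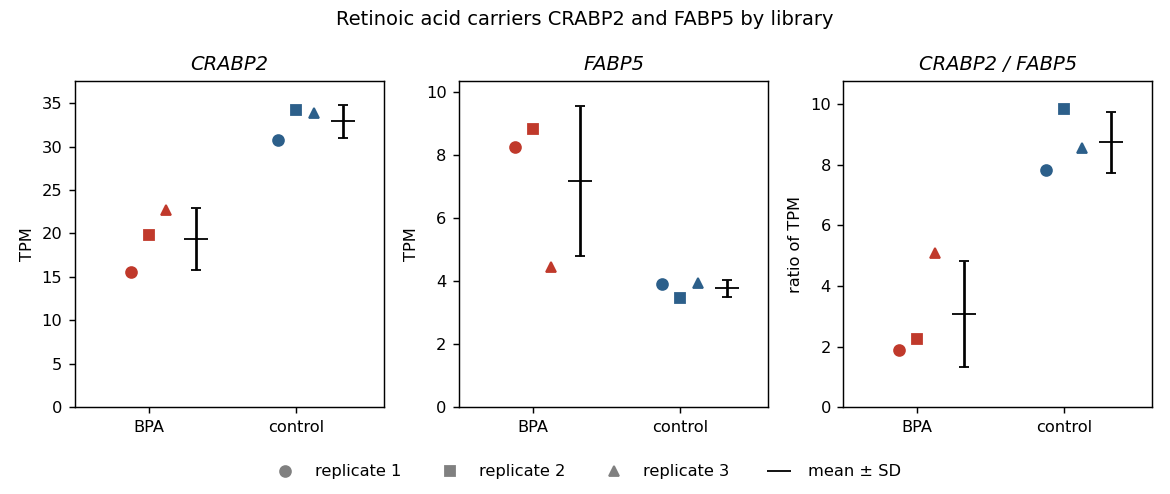
TPM of CRABP2 and FABP5 and the ratio of their TPM in each library, with BPA left of control, 1 marker shape per replicate number and the mean ± SD beside the points. The ratio is 1.89 to 5.09 with BPA and 7.83 to 9.83 in control, and FABP5 in BPA replicate 3, at 4.45 TPM, lies closest to the control libraries.

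On the uptake, binding and storage list, 9 of 20 genes were tested, with a median log2 change of 0.55. By limma 0 passed in either direction, and with p left unadjusted (under 0.05) 2 lay above and 1 below control. The unadjusted shares of all tested genes were 1.87% above and 1.7% below. RBP4, the plasma carrier of retinol, had 288, 299 and 254 TPM with BPA, against 378, 325 and 368 TPM in control (limma, log2 change -0.35, SE 0.11, adjusted p = 0.901). Its groups did not overlap. CD36, a fatty acid and carotenoid transporter, had 2.63, 2.68 and 1.13 TPM with BPA, against 0.665, 1.04 and 0.561 TPM in control (limma, log2 change 0.81, SE 0.25, adjusted p = 0.901). It reached the expression filter only through the BPA libraries, with a mean log2(TPM + 1) of 1.61 with BPA and 0.80 in control, so it had to lie above control, and its log2 change was 0.31 with a pseudocount of 5 and 1.34 with one of 0.1. PNPLA2, the lipase that opens triglyceride breakdown, overlapped at 270 ± 210 TPM with BPA and 124 ± 58.7 TPM in control (SD, n = 3 each). LRAT, which esterifies retinol for storage, was listed at 0 in BPA replicate 3 and in control replicates 1 and 3 and was under 0.05 TPM in the others.

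On the oxidation, reduction and clearance list, 18 of 34 genes were tested, with a median log2 change of 0.09. By limma 0 passed in either direction, and with p left unadjusted (under 0.05) 1 lay above and 0 below control. The unadjusted shares of all tested genes were 1.87% above and 1.7% below. DHRS9, a retinol and steroid dehydrogenase, had 71.9, 73.3 and 89.4 TPM with BPA, against 52.3, 62.4 and 50.1 TPM in control. Its groups did not overlap (limma, log2 change 0.50, SE 0.13, adjusted p = 0.901). RDH10, which begins retinoic acid synthesis in the embryo, overlapped at 48.0 ± 9.32 TPM with BPA and 46.7 ± 5.31 TPM in control (SD, n = 3 each). RDH5, another retinol dehydrogenase, overlapped at 10.3 ± 3.94 TPM with BPA and 6.48 ± 0.686 TPM in control. RETSAT, which saturates retinol, overlapped at 31.9 ± 4.28 TPM with BPA and 26.6 ± 2.44 TPM in control.

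CYP1B1, a P450 enzyme that can oxidise retinol, overlapped at 223 ± 96.9 TPM with BPA and 156 ± 29.5 TPM in control (SD, n = 3 each). The genes of smallest p among those below control on this list were HSD17B6, ADH5 and SDR16C5, with log2 changes of -0.06, -0.11 and -0.07, and all 3 overlapped between groups. CYP26A1 is not analysed here. Among enzymes of retinoic acid synthesis, RDH10 and DHRS9, which act on retinol, were thus far more abundant than ALDH1A1 and ALDH1A3. These 2 act on retinaldehyde and stayed under 0.3 TPM in every library. Without ALDH1A2, which is not analysed here, the summed level of the ALDH1A enzymes is not known.

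Receptor partners and coregulators had 25 of 28 genes tested and a median log2 change of 0.17, and 0 passed in either direction, with 0 also at an unadjusted p under 0.05. The smallest p among those above control belonged to the corepressor NCOR1, at 10.1, 10.7 and 12.5 TPM with BPA, against 8.96, 9.65 and 9.31 TPM in control (limma, log2 change 0.23, SE 0.11, adjusted p = 0.901). Its groups did not overlap. The orphan receptor NR2F1 and the corepressor NRIP1 overlapped, with log2 changes of 0.27 (SE 0.15) and 0.17 (SE 0.11). Below control, the arginine methyltransferase PRMT1, the corepressor subunit TBL1XR1 and the deacetylase HDAC3 overlapped, with log2 changes of -0.17, -0.12 and -0.16.

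Genes known to be induced by retinoic acid in other cells had 25 of 46 members tested and a median log2 change of 0.16. By limma 0 passed in either direction, and with p left unadjusted (under 0.05) 3 lay above and 0 below control. The unadjusted shares of all tested genes were 1.87% above and 1.7% below. PDK4 and IGFBP3 were among those with the smallest p above control. IGFBP3, a carrier of insulin-like growth factors, had 11.1, 16.6 and 21.1 TPM with BPA, against 7.24, 9.47 and 8.54 TPM in control (limma, log2 change 0.84, SE 0.24, adjusted p = 0.901). PDK4, a kinase that restrains pyruvate oxidation and is also induced by glucocorticoids, had a log2 change of 0.47 (SE 0.12). Both lay above control without overlap, as did 5.38% of all tested genes.

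Below control on that list were RAI14 and RARRES1, among others. RARRES1, a membrane protein first found as a gene induced by a retinoid, had 24.3, 27.6 and 28.8 TPM with BPA, against 30.2, 30.8 and 29.5 TPM in control (limma, log2 change -0.16, SE 0.10, adjusted p = 0.901). RAI14, an actin-binding protein, was at 12.4 ± 0.518 TPM with BPA and 14.3 ± 0.394 TPM in control (SD, n = 3 each). RAI14 and RARRES1 lay below control without overlap, as did 3.98% of all tested genes. TGM2, a transglutaminase and a classic retinoic acid target, had 0.456, 0.909 and 2.59 TPM with BPA, against 0.522, 1.42 and 0.928 TPM in control, with overlap (limma, log2 change 0.16, SE 0.36, adjusted p = 0.915). It too reached the filter only through the BPA libraries. RARRES2 is not analysed here. The list held genes on both sides of control, but 22 of the 25 tested had a log2 change above 0, against 56.6% of all tested genes. BPA replicate 3 was the highest library for 19 of the 25, and for 38.9% of all tested genes. RARB, STRA6 and DHRS3, the other known targets among the members, overlapped between groups. RARB and STRA6 did not exceed 0.0371 TPM, a level at which no difference can be shown.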

How the data were processed

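Per the labels' protocols, RNA purified on silica columns went into stranded mRNA libraries read on an Illumina instrument. The deposited table held log2 values for 23299 genes. Their antilogs minus 1 summed to 1000000 per library, so they were taken as log2(TPM + 1), pseudocount 1. How the authors aligned and counted reads, and on which build, is not given in the sources used here, and no coordinates are given. TPM does not carry depth, so counting intervals are not possible.

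BPA was compared with control over the 12277 genes whose log2(TPM + 1) averaged at least 1, using limma 3.58.1 under R 4.3.3 (two-sided, empirical Bayes with an expression trend, equal library weights, Benjamini-Hochberg adjustment, threshold 0.05). Differences on this scale understate those of scarce genes. The test was checked on simulated data whose noise was independent in each gene and library. That check does not cover variation shared between genes, which the first principal component showed in these libraries. The members and lists were chosen with earlier results of these data known. Genes named were the 9 members, 14 fixed retinoid genes, up to 3 genes of smallest p per list and direction, and the 5 genes nearest to CRABP2, passing over 2 locus numbers. Some genes that this rule names are not reported here. CNN1, FABP4 and the genes of the marker check were named after their values were seen. Alternatives were other pseudocounts, filters, scalings, library weights, a replicate block, and leaving out each library.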

Additional observations from a re-analysis of the deposited data

How the results depend on the processing

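The log2 change of CRABP2 ran from -0.86 to -0.61 when a library was left out; its sign was fixed by the choice of the gene, whose groups do not overlap, and is no sign of stability. The ratio of CRABP2 to FABP5 differed by -6.67 to -5.07 when a library was left out, the RARG share of RAR differed by 2.10 to 4.93 percentage points, the RXRA share of RXR by -0.04 to 8.85 and the ALDH1A3 share by -2.49 to 0.94. Of the wider retinoid genes 0 passed when a library was left out; higher genes at an unadjusted p under 0.05 numbered 3 to 10 and lower ones 0 to 2. Of all tested genes 0 to 1 passed, 77 to 530 were higher and 93 to 419 lower at an unadjusted p under 0.05.

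Library weights changed the calls most. Weights by restricted maximum likelihood did not converge (6489 for BPA replicate 2), and 4629 genes passed, 34 of them retinoid; 4031 were higher and 2138 lower unadjusted, 33 and 6 among retinoid genes. Gene-by-gene weights, added after seeing the data, ranged from 0.115 to 7.07; 881 genes passed, 12 of them retinoid, with 2463 higher and 1265 lower unadjusted, 27 and 5 among retinoid genes. Without filter 6 genes passed, 530 were higher and 536 lower unadjusted, with 2 retinoid genes lower. With the stricter filter (mean of at least 3) these were 121 and 109, with 3 retinoid genes higher. Median centring and quantile normalization gave 107 and 135 higher genes, and median-ratio scaling 2 lower retinoid genes. The cause was not tested.

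Same-numbered libraries deviated together with correlations of 0.718, -0.44 and -0.232, so the numbers were not taken to pair them. With the replicate block 131 genes were higher and 133 lower unadjusted, with 0 retinoid genes lower, and the CRABP2 difference was -0.75 (SE 0.13), which a block cannot move in this balanced design.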

Other observations

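The homeobox genes HOXA2, HOXA3 and MEIS1, which retinoic acid induces in the embryo, lay above control. They were picked with their values in view, and all 3 were under the expression filter and were not tested. HOXA2 had 1.20, 1.20 and 0.755 TPM with BPA, against 0.722, 0.627 and 0.726 TPM in control. HOXA3 had 0.667, 0.668 and 0.673 TPM with BPA, against 0.596, 0.582 and 0.524 TPM in control. MEIS1, a partner of HOX proteins, had 0.745, 0.756 and 0.805 TPM with BPA, against 0.560, 0.617 and 0.612 TPM in control. No group overlapped in these 3 genes, at levels whose read depth is unknown. Of all tested genes 5.38% lay above control in this way, a share that does not cover genes under the filter. Among other genes of the retinoic acid induced list under the filter, NTRK2 also lay above control without overlap. RAI2, CDX1, SOX9, TGM1, HOXB1 and ADAMTS9, among others, overlapped. HOXB2, HOXB3 and HOXD4 overlapped between groups.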
